A study of Drepana arcuata with 6 samples.

Results

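In larvae of the masked birch caterpillar, *Drepana arcuata*, 86 genes were well expressed in 2 of the 3 late instar pools and far lower in the third. They were chosen by their measured values. A gene was taken if it had at least 10 CPM (its share of the counts of a library, scaled to 1e6) in both late replicate 1 and late replicate 3, and if its level in late replicate 2 was under 10% of the lower of these. Of the 116079 genes of the assembly, 10289 passed the first limit. Of these, 41 were left out because the study names them in its tables or because they belong to clusters TRINITY_DN21441 and TRINITY_DN22537, and of the other 10248 genes 86 passed both limits. Their values in the late libraries, and any contrast that uses those libraries, are therefore descriptions. The early libraries played no part in the choice. No gene of the 86 was at 0 counts in late replicate 2, where they had between 4 and 784 counts with a median of 76. They were low there and not absent.

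The libraries were made from whole larvae, all offspring of 1 female, reared on paper birch. Late instars (IV and V), which live alone, were sequenced as 3 pools of 5 larvae. Early instars (I and II), which live in groups, were sequenced as 3 pools of 20 larvae. The methods of the study give the same mix of instars IV and V for every late pool, and about equal numbers of I and II for the early pools. Depth ran from 15109224 to 35571272 counts in late libraries and from 11177800 to 46307057 in early libraries, and late replicate 2 held 28276799. Over 22132 genes, Pearson's r of log2(CPM + 1) was 0.983 between late replicates 1 and 3, 0.937 between late replicates 2 and 1, and 0.956 between late replicates 2 and 3. It was at least 0.976 between early libraries. The points of these correlations are genes, which are not independent replicates.

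A moth larva grows through instars that are separated by moults. Within an instar it feeds, stops feeding, builds a new cuticle and sheds the old one, and in well studied moths many genes of the gut, the fat body, the epidermis and the silk glands are switched on for only part of this cycle. RNA of a whole larva is the sum over all of these tissues, so fewer cells of a type and less RNA per cell cannot be told apart. The genes here are Trinity genes. Trinity builds contigs from reads without a genome and names those that share sequence as isoforms of a gene. Genes whose names share the DN number belong to the same cluster of overlapping reads, and may be pieces of a longer gene or related copies. The deposited tables and the sources used here give no gene names for the 86. The study made its assembled sequences and an annotation report of the transcriptome available, and neither was used here. For TRINITY_DN13131_c0_g1 the study lists the database entry of a similar protein, without its name. The genes are therefore called by their identifiers and no function is assigned to them.

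For 1 of the 86, TRINITY_DN13131_c0_g1, a stretch of sequence was at hand here, because the study designed primers against its isoform i1 for RT-qPCR. The study took its RT-qPCR transcripts from those that it had called as differing between early and late instars. The RT-qPCR values were not analysed here. The pair is shown because it is the only sequence of the group found in the sources used, and each primer is written from its 5′ end.

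TRINITY_DN13131_c0_g1_i1 forward: aacgtcgttgtgaaaagctc

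TRINITY_DN13131_c0_g1_i1 reverse: ggtaatccgttgatttgtcg

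This gene had 25.6, 0.354 and 14.4 CPM in late replicates 1, 2 and 3, against 0.0648, 0.179 and 0.336 CPM in early replicates 1, 2 and 3. The counts behind these were 911, 10 and 218 in late libraries and 3, 2 and 8 in early libraries. Late replicates 1 and 3 stood apart, and late replicate 2 lay just above the highest early library. The isoform that the primers target held 91.2%, 63.8% and 79.8% of the TPM of the gene in the late replicates.

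The same limits, with another library of the stage in the place of the low one, were met by fewer genes. With late replicate 1 as the low library 15 genes met them (0.153% of those at the CPM limit and not left out), with late replicate 3 there were 0, and with early replicates 1, 2 and 3 there were 4, 0 and 0. For late replicate 2 the share was 0.839%. Of the 15 genes low in late replicate 1, 12 had their highest value in late replicate 2.

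**Figure D1:**
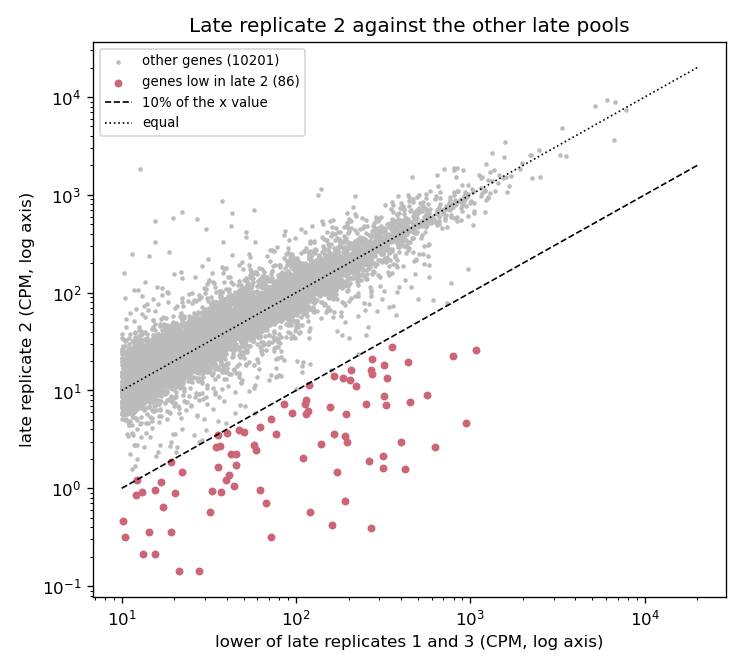
CPM in late replicate 2 (y axis, log scale) against the lower of late replicates 1 and 3 (x axis, log scale) for the 86 genes and for the 10201 other genes at or above 10 CPM on the x axis that were not low in late replicate 2, left-out genes included. The other genes lie around the line of equality, with a median of 103% of the x value, and the 86 genes lie below the dashed line at 10% that chose them.

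Between them the 86 genes took 2.03% of late replicate 1, 0.0453% of late replicate 2 and 1.46% of late replicate 3. In early replicates 1, 2 and 3 they took 0.0894%, 0.0494% and 0.0585%. Per gene, the median was 147 CPM in late replicate 1, 2.69 CPM in late replicate 2 and 102 CPM in late replicate 3, and 1.16, 1.16 and 1.07 CPM in the early replicates. The low late pool was thus below all early libraries in the total and above them in the median. The early totals rested on 8 genes with an early mean of at least 10 CPM. Without these 8, the sums were 16625, 337 and 11994 CPM in late replicates 1, 2 and 3, against 153, 148 and 142 CPM in early replicates, so that late replicate 2 was above all early libraries.

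**Figure D2:**
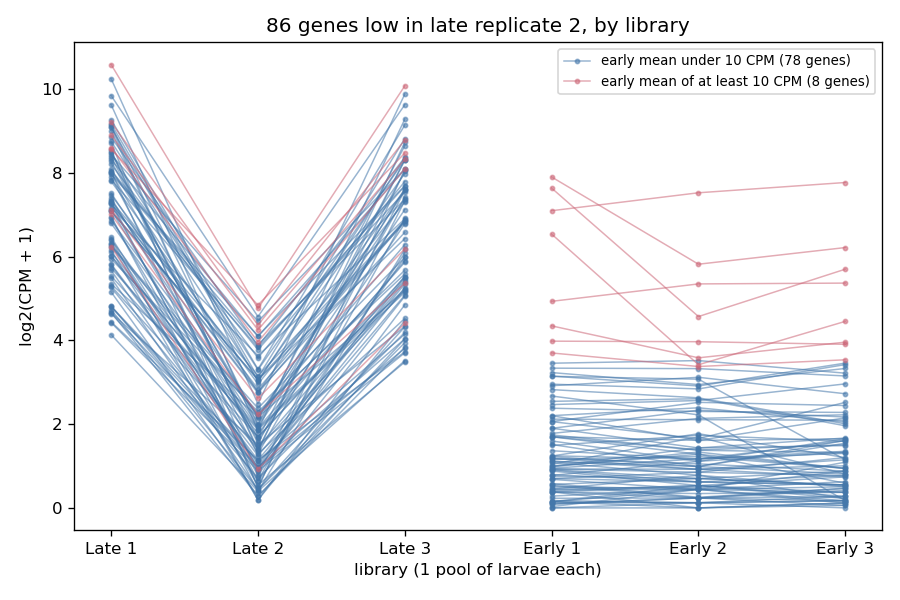
Level of each of the 86 genes, as log2(CPM + 1), in the 3 late and the 3 early libraries. Lines join the libraries of a stage for 1 gene, without an order among replicates, and the 8 genes with an early mean of at least 10 CPM are drawn in red. All lines dip at late replicate 2, to between 0.141 and 27.7 CPM.

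The most abundant of the group was TRINITY_DN21565_c0_g1, with 1541, 26.2 and 1083 CPM in late replicates 1, 2 and 3, against 29.6, 39.8 and 40.4 CPM in early replicates 1, 2 and 3. Its low late pool was below all early libraries. TRINITY_DN19832_c1_g4 had 1218, 4.60 and 944 CPM in late replicates, against 0.130, 0.0895 and 0.126 CPM in early replicates, where it rested on 6, 1 and 3 counts. A second gene of that cluster, TRINITY_DN19832_c1_g2, had 792, 2.62 and 624 CPM in late replicates and 0.453, 0.179 and 0.126 CPM in early replicates. Both were nearly unexpressed in early instars, and in both the low late pool was still above all early libraries, at 40.0 and 10.4 times the early mean. TRINITY_DN19600_c0_g1 had 922, 22.7 and 792 CPM in late replicates, against 6.76, 6.17 and 9.73 CPM in early replicates. TRINITY_DN22419_c1_g3 had 618, 8.95 and 566 CPM in late replicates, against 0.216, 0.358 and 0.126 CPM in early replicates. In these 5 genes late replicates 1 and 3 differed by 1.09 to 1.42 times, while the lower of them was 34.8 to 238 times late replicate 2.

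The deepest drop relative to the other late pools was that of TRINITY_DN14305_c0_g2, with 421, 0.389 and 270 CPM in late replicates 1, 2 and 3, from 14992, 11 and 4078 counts. It had 0.907, 0.805 and 0.713 CPM in early replicates. Late replicate 2 was 0.144% of late replicate 3 and lay below all early libraries. TRINITY_DN19525_c2_g1 had 259, 0.424 and 160 CPM in late replicates, against 0.734, 0.537 and 0.462 CPM in early replicates. TRINITY_DN21205_c1_g3 had 548, 1.56 and 424 CPM in late replicates, against 0.842, 0.447 and 0.671 CPM in early replicates. In the last of these the low late pool was above the early libraries, and in TRINITY_DN19525_c2_g1 it was below them.

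At the limits the group had no natural edge. Just inside the 10% limit was TRINITY_DN22083_c3_g1, with 39.9, 3.50 and 35.5 CPM in late replicates (9.87%). Just outside it, among genes not left out, was TRINITY_DN21206_c1_g1, with 83.7, 5.94 and 57.8 CPM (10.3%). Of the genes left out, the mucin-5AC-like gene of the study lay nearer, with 205, 16.1 and 158 CPM (10.2%). Just inside the CPM limit was TRINITY_DN15587_c1_g1, with 77.5, 0.460 and 10.2 CPM, and just outside it was TRINITY_DN11529_c0_g1, with 14.7, 0.248 and 9.93 CPM. Over the 86 genes, late replicate 2 ran from 0.144% to 9.87% of the lower of the other late pools, with a median of 3.97%.

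The rule left out genes that the study names in its tables. Of the 27 such genes, 18 had at least 10 CPM in late replicates 1 and 3, and 2 of these met both limits. They were the urbain precursor gene, at 2453, 4.95 and 1530 CPM in late replicates 1, 2 and 3, and the glucose dehydrogenase-like gene, at 244, 3.50 and 85.4 CPM. In early replicates they had 2.36, 3.50 and 2.62 CPM, and 0.173, 0.0895 and 0.126 CPM. Glucose dehydrogenases oxidize glucose, and in *Drosophila* glucose dehydrogenase is needed for the adult to leave the pupal case. The late pattern of both genes follows from the limits that picked them. Both were low in early instars, as most of the 86 were.

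The rule asked nothing of the order of late replicates 1 and 3, yet late replicate 1 was higher in all 86 genes in CPM and in TPM, and in 85 after TMM scaling of the library totals, where TRINITY_DN18725_c1_g1 (45.5 against 45.0 CPM before scaling) was the exception. Among the 10201 other genes the share was 64.3% in CPM. The comparisons in TPM and after TMM scaling were chosen after seeing the data. The ratio of late replicate 1 to late replicate 3 had a median of 1.42 over the 86 genes and of 1.07 over the other genes. It ran from 1.01 to 7.60 and was above 2 in 10 genes. The most unequal were TRINITY_DN15587_c1_g1, given above, and TRINITY_DN15891_c0_g1, with 138, 1.45 and 22.0 CPM in late replicates and 3.61, 2.06 and 3.44 CPM in early replicates. The 3 late pools thus stood in the same order, replicate 1 above 3 above 2, in each of the 86 genes. The upper step was a small one for most genes and the lower step was set by the rule. Pearson's r of log2(CPM + 1) across the 86 genes was 0.959 between late replicates 1 and 3 and 0.653 between late replicate 2 and the mean of the others. For the other genes these were 0.972 and 0.928. These points share libraries, and some share a cluster, so the values are descriptions.

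In early instars the group was low. Of the 86 genes, 32 (37.2%) were under 1 CPM in all 3 early libraries, against 270 (2.65%) of the other 10201 genes that had at least 10 CPM in late replicates 1 and 3. By the TPM of the authors in place of CPM the 86 gave 64, and the share of the other genes in TPM is not given here. In all, 77 of the 86 were under 10 CPM in every early library. The median early mean was 1.18 CPM for the 86 genes and 35.1 CPM for the other genes. Some of the genes differed several-fold between early libraries, such as TRINITY_DN17345_c0_g1 and TRINITY_DN22374_c5_g1, whose values are given with those genes.

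Late replicate 2 was above the highest early library in 61 genes (70.9%), within the early range in 9 and below the lowest early library in 16 (18.6%). For the other genes these shares were 39.5%, 31.5% and 29.0%. Late replicate 2 had a median of 1.88 times the early mean over the 86 genes, where late replicate 1 had 103 times and late replicate 3 had 61.6 times. Over the other genes all 3 medians lay between 1.03 and 1.14. Across the 86 genes, Pearson's r of log2(CPM + 1) with the early mean was 0.541 for late replicate 2 and 0.255 for the mean of late replicates 1 and 3. Over the other genes these were 0.753 and 0.740, and all are descriptions without a test.

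**Figure D3:**
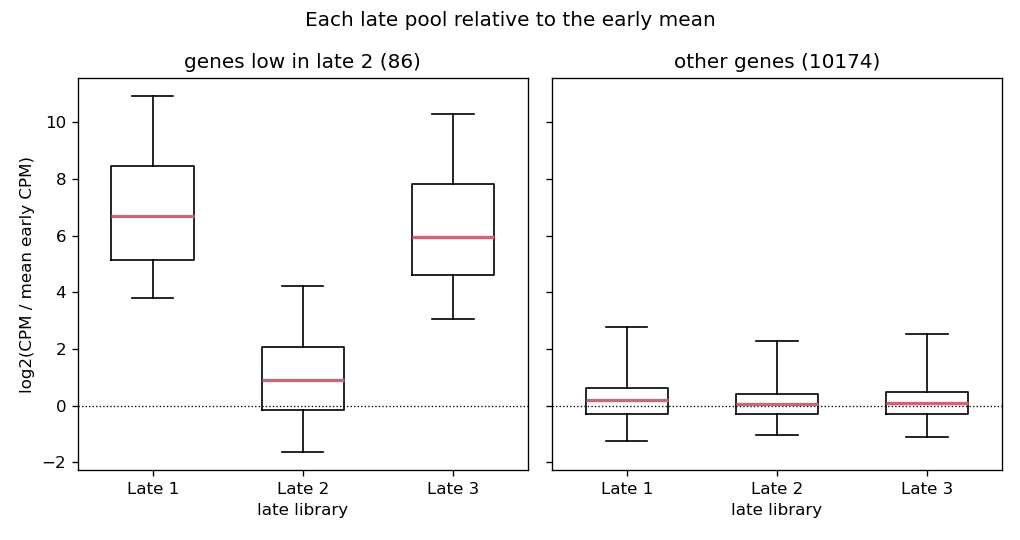
Log2 ratio of each late library to the mean of the early libraries, for the 86 genes (left) and for the 10174 other genes with an early mean above 0 (right). Boxes span the quartiles, whiskers the 5th to 95th percentiles over genes, and red lines the medians, which for the 86 genes stand at 103, 1.88 and 61.6 times the early mean in late replicates 1, 2 and 3.

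A small subset behaved otherwise. There were 8 genes with an early mean of at least 10 CPM, and in 3 of them, all short contigs, an early library held the highest value of all 6. TRINITY_DN15308_c3_g4, a single contig with a length of 265 bp, had 139, 5.13 and 71.9 CPM in late replicates 1, 2 and 3, against 239, 55.6 and 73.5 CPM in early replicates. TRINITY_DN22374_c5_g1 (245 bp) had 128, 3.70 and 40.2 CPM in late replicates, against 198, 22.8 and 51.1 CPM in early replicates. In the same cluster TRINITY_DN22374_c6_g1 (228 bp), named after its values were seen, had 74.6, 0.903 and 20.2 CPM in late replicates, against 92.1, 9.71 and 21.0 CPM in early replicates. In all 3 contigs the replicates numbered 1 were highest and those numbered 2 lowest in both stages. Their mean in late replicates 1 and 3 was 0.859, 0.927 and 1.16 times the early mean, close to early levels. Cluster TRINITY_DN22374 had 7 genes at the CPM limit, and the other 5 did not meet the 10% limit.

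TRINITY_DN17708_c2_g2 had 380, 27.7 and 355 CPM in late replicates 1, 2 and 3, against 136, 184 and 218 CPM in early replicates. It had the highest early mean of the group, 179 ± 41.0 CPM (SD, n = 3). It was thus expressed in 5 of the 6 pools at 136 CPM or more, and late replicate 2 was 0.155 times the early mean.

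The 86 genes fell into 67 clusters. There were 12 clusters with 2 or more of them, which held 31 of the 86. These 12 clusters had 36 genes at the CPM limit, and in 11 of the 12 every gene at the CPM limit belonged to the group, the exception being TRINITY_DN22374. These clusters are those picked for holding several of the 86. Of the other 55 clusters, which hold 1 each, 33 had further genes at the CPM limit that are not among the 86. The largest was TRINITY_DN17456 with 7 genes. Summed over these, it had 2122, 76.9 and 1523 CPM in late replicates 1, 2 and 3, against 63.1, 51.4 and 57.8 CPM in early replicates. Late replicate 2 held 4.46% to 5.63% of the lower of the other late pools in each of the 7. In cluster TRINITY_DN22419, 3 genes had 1451, 20.0 and 1209 CPM together in late replicates and 0.605, 1.43 and 0.378 CPM in early replicates, and their share in late replicate 2 was 1.58% to 1.77%. In cluster TRINITY_DN22646, 3 genes had 672, 41.4 and 542 CPM in late replicates and 5.03, 4.65 and 4.66 CPM in early replicates, with 6.75% to 7.86%. In these 3 clusters the genes were alike in how far they dropped, but in cluster TRINITY_DN19338 the 2 genes stood at 0.514% and 4.63%. RSEM can divide a fragment between genes of a cluster, and these genes are not independent of each other. The group is therefore not 86 independent units, and how many such units it holds was not estimated.

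Other properties that the rule did not use were less distinct. The longest isoform had a median of 1620 bp over the 86 genes (215 to 7099 bp) and of 2158 bp over the others, and was under 300 bp in 8 of the 86 (9.30%) and in 4.86% of the others. The median number of isoforms was 3 for the 86 and 6 for the others. The 86 genes had 389 isoforms, and 110 of these, in 78 genes, had at least 10 CPM in late replicates 1 and 3. Of the 110, 105 were under 10% of the lower value in late replicate 2, which the limit on the sum of the isoforms largely fixes. Of the 66 genes with several isoforms, the isoform with most counts in late replicates 1 and 3 was also first in TPM in 48 in late replicate 2, and in 43, 38 and 42 in early replicates 1, 2 and 3. In TRINITY_DN14305_c0_g2 it held 67.2% and 51.8% of the TPM in late replicates 1 and 3 and 0% in late replicate 2, where the gene rested on 11 counts.

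The study compared late with early instars by edgeR on transcripts. Its calls are not counted here, and the calls below are on the summed counts of genes. The isoform of TRINITY_DN13131_c0_g1 with primers was among the transcripts that the study called. How many of the 86 genes were called in the tests run here depended on the test. For the quasi-likelihood test it also depended on the filter on low counts, on the limit on the adjusted p and on late replicate 2. EdgeR's quasi-likelihood test on the summed counts of 22132 genes, with limits of 0.001 on the adjusted p and 2 on the size of the log2 fold change, called 0 of the 86 higher in late instars (background 4.87% of all genes tested) and 0 lower (background 3.96%). Their smallest adjusted p was 0.00121 (edgeR, Benjamini-Hochberg), 80 were higher at an adjusted p of at most 0.05 with that limit on the fold (background 7.74%), and at an unadjusted p under 0.05, 82 were higher (background 19.0%) and 0 lower (background 21.3%). On the same counts edgeR's exact test called 80 higher in late instars (background 7.67%) and DESeq2 called 67 (background 7.32%), and neither called any lower. With all 6 libraries and no filter on low counts the quasi-likelihood test called 82 (background 1.96%). Without late replicate 2 the quasi-likelihood test called 81 (background 6.80%). The CPM limit on late replicates 1 and 3 does not by itself fix a call as higher in late instars. Over the other genes at that limit, the mean of these replicates had a median of 1.10 times the early mean. Over the 86 genes this median was 81.0 times. The rule chose genes by late libraries that these tests also use, so the counts are descriptions and nothing more is read from them.

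**Figure D4:**
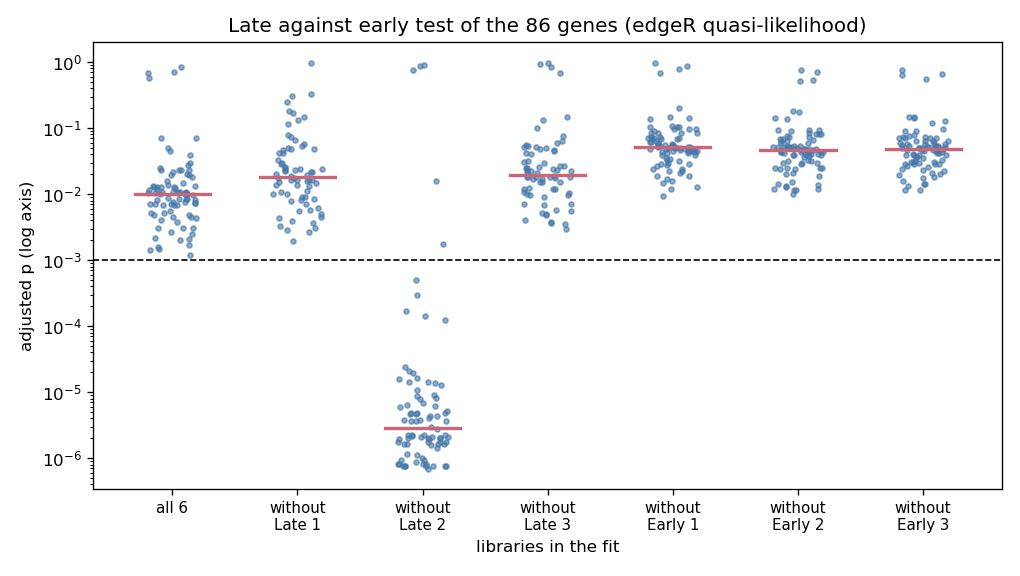
Adjusted p (log axis) of late against early instars for the 86 genes by edgeR's quasi-likelihood test, with all 6 libraries and with each library left out in turn. Each point is a gene, red lines are medians and the dashed line is the limit of 0.001. The median was 0.0101 for all 6 and 2.84e-06 when late replicate 2 was left out, and in the other fits all genes lie above the limit. Without late replicate 1 or 3 only 70 of the genes passed the filter on low counts.

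The median log2 fold change, late minus early, was 5.74 over the 86 genes with all libraries, beside -0.0027 over all genes tested, and 6.30 without late replicate 2. Standard errors were taken as the size of the log2 fold change over the square root of the F statistic of the quasi-likelihood test. The median standard error of a gene was 1.14 on 6 libraries, and leaving out late replicate 2 it was 0.309. All 3 late libraries were above all 3 early libraries in 61 of the 86 genes, beside 22.0% of all genes tested. The rule chose genes with late replicate 2 far below the other late pools. The fall in standard error on leaving that library out therefore largely follows from the choice. TRINITY_DN19832_c1_g4 is given as an example. It had 722 ± 636 CPM (SD, n = 3) in late instars and 0.115 ± 0.0222 CPM in early instars, and the late minus early difference on the log2 scale was 12.45, with a standard error of 2.10 and an adjusted p of 0.0027 by edgeR. Without late replicate 2 it was 13.03, with a standard error of 0.32 and an adjusted p of 6.87e-07 by edgeR. Over all 12 alternative fits its adjusted p lay between 7.54e-188 and 0.0224. TRINITY_DN21565_c0_g1 had 883 ± 777 CPM in late and 36.6 ± 6.07 CPM in early instars, and the log2 difference was 4.52, with a standard error of 1.15 and an adjusted p of 0.0195 by edgeR. The p-values of the quasi-likelihood fits with all libraries and without late replicate 2 measure the spread between pools of offspring of 1 female. Adjusted p-values differed widely between the alternative fits, here and below. The smallest of them are not read as measures of the spread between pools.

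The 5 genes not called without late replicate 2 included the 3 short contigs and TRINITY_DN17708_c2_g2. For TRINITY_DN17708_c2_g2 the log2 fold change was 0.97 without late replicate 2, with a standard error of 0.25 and an adjusted p of 0.016 by edgeR, and 0.44 with an adjusted p of 0.708 with all libraries. Its adjusted p lay between 0.016 and 0.965 over the 12 alternative fits. The fifth, TRINITY_DN17345_c0_g1, had 87.4, 0.955 and 62.3 CPM in late replicates 1, 2 and 3, against 5.38, 3.67 and 0.126 CPM in early replicates, with an adjusted p of 0.00177 by edgeR without late replicate 2 and of 2.54e-38 to 0.214 over all 12 alternatives. Its early libraries also differed from each other, with replicate 3 far below the others. For the 3 contigs the log2 fold change was between -0.24 and 0.19 without late replicate 2 and between -0.79 and -0.38 with all libraries.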

How the data were processed

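The libraries were 150 bp paired-end RNA-seq. The authors trimmed reads with Trimmomatic 0.36, built a combined Trinity assembly from all libraries as the reference and quantified its transcripts by RSEM. The aligner and the version of RSEM were not given in the sources used here. Each deposited table holds unnormalized expected counts of transcripts. It also holds TPM and, for each isoform, its percent of the gene's TPM, which the authors' RSEM runs computed within a library. No genome was used, so the genes have no coordinates.

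Expected counts were summed over the isoforms of each gene and divided by the library total to give CPM. For tests across all genes the sums were rounded to whole numbers, and genes above 1 CPM in 2 or more libraries entered edgeR 4.0.16 (R 4.3.3; TMM, estimateDisp, glmQLFit, glmQLFTest), with stage as the only term and Benjamini-Hochberg adjustment over all genes tested. Alternatives were RLE factors, DESeq2 1.42.0, the exact test, other filters, an adjusted p of 0.05, the replicate number as a block, each library left out, and other limits and units of the rule. On simulated counts with 200 changed genes and all 6 libraries, the quasi-likelihood test called 198 of them and 0 unchanged genes. The exact test called 200 and 8 unchanged genes, and DESeq2 called 199 and 5 unchanged genes. The changed genes had a mean above 10 CPM and log2 changes well above the limit of 2 in size, so smaller changes were not simulated. Genes low in late replicate 2 alone were not simulated either, so the numbers called do not show how the tests treat such genes. A level of 1 CPM rests on 11.2 to 46.3 counts, and counts carry counting error besides the spread of pools. The limits, identifiers and lists were chosen with earlier results of these data known. Identifiers named are the 5 highest late genes, the 3 highest early genes, the 3 lowest ratios, those at the limits, the gene with primers, and others chosen after their values were seen. No gene of the 2 clusters left out by the rule met its limits.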

Additional observations from a re-analysis of the deposited data

How the results depend on the processing

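Calls of the 86 genes as higher in late instars depended on the test. For the quasi-likelihood test they also depended on the filter on low counts, on the limit on the adjusted p and on late replicate 2. Against 0 by that test (4.87% of all genes tested), there were 80 at an adjusted p of 0.05 (7.74%), 67 by DESeq2 (7.32%), 80 by the exact test (7.67%), 82 without a filter on low counts (1.96%), 1 with filterByExpr (78 of the 86 tested, 4.43%) and 12 with the replicate block (4.48%). Leaving out a library gave 0 to 81, with 81 only without late replicate 2 (6.80%). Calls as lower in late instars were 0 in each of these fits. Without late replicate 2, 81 became 77 to 82 in all alternatives run. The cause of these differences was not tested. The deviations of early and late libraries from their stage mean had r = 0.161, 0.0416 and 0.214 for the same replicate number. For different numbers r ran from -0.223 to 0.0134. Whether the numbers mark pairs was not tested, and the main fits did not use them. The median log2 fold change stayed between 4.28 and 6.30.

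The number of genes was 55 with a limit of 5% and 136 with 20%. It was 61 in TPM, of which 58 were among the 86, and 85 with TMM-scaled totals, all among the 86. Of the 86, genes under 1 CPM in every early library numbered 32, against 20 at 0.5 CPM and 64 in TPM, which is scaled by length. For these alternatives no share of the other genes is given. Early replicate 2 was the shallowest library, and 1 CPM there is 11.2 counts.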

Other observations

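Among genes low in a different library, 2 had 0 counts in replicate 1 of both stages. TRINITY_DN20412_c1_g1, whose longest isoform has 28768 bp, had 0, 1117 and 1040 counts in late replicates 1, 2 and 3, against 0, 567 and 1991 counts in early replicates 1, 2 and 3. TRINITY_DN22570_c4_g1, with 14523 bp, had 0, 668 and 559 counts in late replicates, against 0, 294 and 1233 counts in early replicates. Against a floor of 3 counts these zeros allow up to 0.0843 CPM in late replicate 1 and 0.0648 CPM in early replicate 1, while the other libraries had 23.6 to 83.5 CPM. Neither gene is among the 86, and both were named after their values were seen.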
